A study of Mus musculus with 6 samples.

Results

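Small nucleolar RNA host genes are genes whose transcripts carry small nucleolar RNAs (snoRNAs), mostly within introns. The 10 described here, Snhg1, Snhg3, Snhg4, Snhg5, Snhg6, Snhg7, Snhg8, Snhg11, Snhg12 and Gas5, were taken by symbol from the deposited count and RPKM tables, out of 23229 annotated genes, and all 10 were found in both. RNA was sequenced from isolated sperm nuclei (2 preparations) and from whole sperm (1 preparation). Every preparation came from 4-month-old mice of the C57BL/6 transgenic line HP3.1, with sperm taken from cauda epididymis and vas deferens, so the transgene is shared by both groups, and no library from mice without it was analysed here. Nuclei were freed by sonication and recovered through dense sucrose and caesium chloride, and whole sperm skipped those steps. The labels do not tie preparations to animals, and whole sperm has no replicate, so p-values rest on the spread between 2 nuclei preparations, which may be technical.

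A snoRNA guides the chemical modification or the processing of other RNAs, chiefly ribosomal RNA. Box C/D snoRNAs direct methylation of ribose, and box H/ACA snoRNAs direct the conversion of uridine to pseudouridine. In a host gene the snoRNA is trimmed out of the excised intron, while the spliced exons form an RNA that in most of these genes encodes no long protein and that, for Gas5, is degraded by nonsense-mediated decay when it is translated. Transcription largely stops as sperm mature, and most of the cytoplasm is shed, so RNA in sperm is chiefly left from earlier stages.

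The spans below are RefSeq annotation of GRCm38.p6. Snhg1 lies at chr19:8723487-8726326 on the plus strand and held 8 snoRNA genes. Gas5 lies at chr1:161034601-161038539 on the plus strand and held 9. Snhg5 (chr9:88521052-88522897, minus) held 2 and Snhg6 (chr1:9942025-9944118, minus) held 1. Snhg3 (chr4:132351933-132353686, minus), Snhg4 (chr18:35553410-35558316, plus) and Snhg7 (chr2:26637176-26640244, minus) held 2 each. Snhg12 (chr4:132308678-132311024, plus) held 4. Snhg8 (chr3:123507552-123508336, minus) held 1, Snora24, inside its only exon. Snhg11 (chr2:158375713-158386474, plus) held 2, and it alone among the 10 carried a protein-coding biotype. Of the 33 genes annotated as snoRNA inside the hosts, 2 carry microRNA names, Mir1949 in Snhg4 and Mir5117 in Gas5, and are among the numbers above. Of the 33, 24 lay in introns, 7 in exons of the matched transcript and 2 could not be placed. Those of Gas5 placed in an exon all lay in the same long exon, 565 to 2946 bases from the gene start. Other Gas5 transcripts were not examined, so they may be intronic in those.

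**Figure D1:**
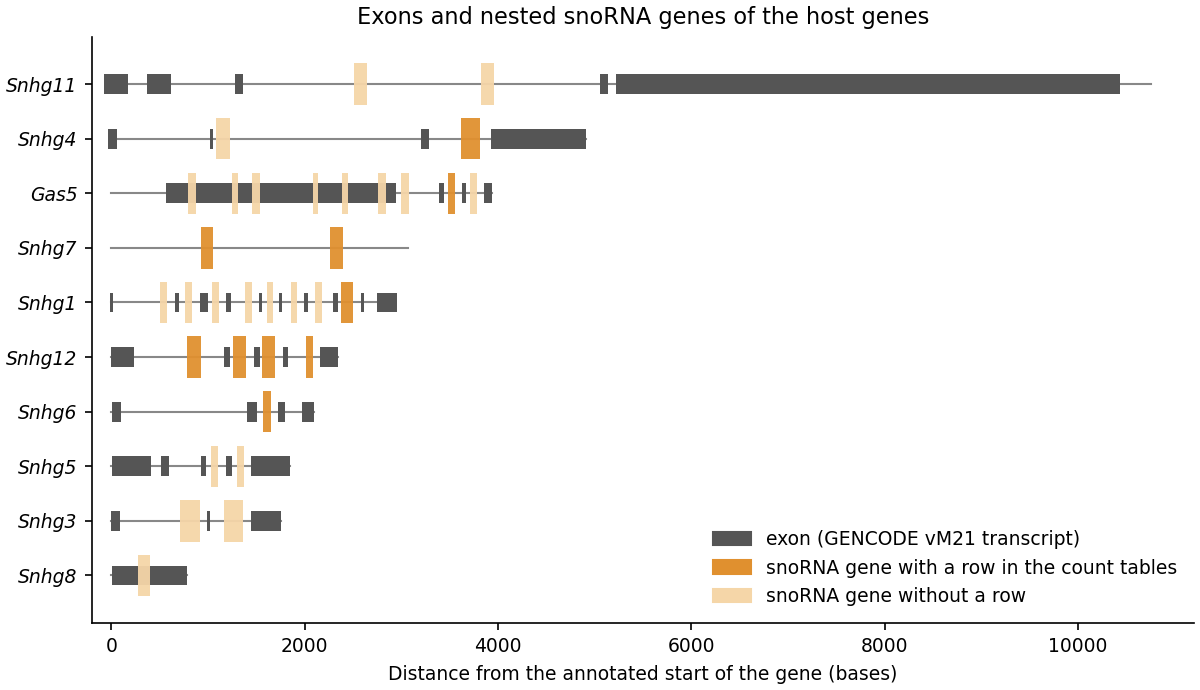
Maps of the host genes, drawn as distance in bases from the annotated RefSeq gene start in the direction of transcription, with exons of the GENCODE vM21 transcript matched to the RPKM table as boxes and snoRNA genes marked. Snhg8 has a single exon, Snhg11 is the longest, and no matched exons are drawn for Snhg7.

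The starts of transcription are shown because many snoRNA host genes are known to begin with a run of pyrimidines, as genes for ribosomal proteins do. Each line runs from 20 bases before the annotated start to 40 bases from it, 5′ to 3′ on the strand of the gene, from RefSeq (GRCm38.p6). Capitals mark a C followed by at least 4 further C or T letters that begins within 5 bases of the start. The first 4 lines are hosts with no count in either nuclei library, and the rest are hosts counted in nuclei. Snhg8 is at chr3:123508297-123508356, Snhg12 at chr4:132308658-132308717, Snhg7 at chr2:26640205-26640264 and Snhg5 at chr9:88522858-88522917. Snhg11 is at chr2:158375693-158375752, Snhg3 at chr4:132353647-132353706, Snhg1 at chr19:8723467-8723526 and the downstream start of Gas5 at chr1:161035146-161035205.
Snhg8: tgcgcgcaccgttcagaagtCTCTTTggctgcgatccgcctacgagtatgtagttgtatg
Snhg12: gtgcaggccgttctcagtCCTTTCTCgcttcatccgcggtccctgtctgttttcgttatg
Snhg7: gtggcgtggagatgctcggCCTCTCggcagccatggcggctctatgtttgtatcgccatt
Snhg5: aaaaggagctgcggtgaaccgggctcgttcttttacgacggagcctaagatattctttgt
Snhg11: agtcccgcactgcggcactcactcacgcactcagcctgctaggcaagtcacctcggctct
Snhg3: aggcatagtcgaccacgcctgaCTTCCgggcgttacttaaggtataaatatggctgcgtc
Snhg1: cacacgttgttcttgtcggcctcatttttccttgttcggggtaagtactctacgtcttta
Gas5 start 2: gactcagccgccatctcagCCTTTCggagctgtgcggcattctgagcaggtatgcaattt
Such a run was found at 5 of the 9 starts that the table holds for 8 hosts (Snhg3, Snhg7, Snhg8, Snhg12 and the downstream start of Gas5), searched on the strand of the gene only. The upstream start of Gas5 had none. Of 32851 promoter entries of the same length, 18.3% held one. By these RefSeq starts, hosts with and without the run occurred both among those at 0 in nuclei and among those counted there. Among the 4 hosts shown at 0 in nuclei, only Snhg5 lacked it. The line of Snhg5 holds ctttt further from the start than 5 bases, and its matched GENCODE transcript starts 7 bases downstream. The result for Snhg5 therefore depends on the start used, and GENCODE starts were not searched.

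The total count over annotated genes and assembled regions was 5487306 for nuclei 1 and 6648848 for nuclei 2, against 8316345 for whole sperm. These totals leave out spike-ins and rows that name no gene, which held 6233283 counts in whole sperm and none in nuclei. Levels are CPM, counts scaled to library size with TMM factors. Of 9 hosts tested, none was called higher in nuclei by edgeR's quasi-likelihood test at an adjusted p of 0.05 (0.0278% of all tested genes were), and none was called lower (0.111% of all tested genes were). At an unadjusted p under 0.05 in edgeR, 1 host passed, Snhg11, higher in nuclei, as did 3.11% of all tested genes in that direction, and no host passed in the lower direction (2.33% of all tested genes). DESeq2 gave an adjusted p to 1 of the 9 hosts, Snhg11, which it called higher, as it did 17.8% of the 1115 genes given one (3.41% of these were called lower). The other 8 hosts had no adjusted p in DESeq2 and could not be called by it. Both nuclei libraries stood above whole sperm in CPM for 3 of the 9 tested hosts (26.1% of all tested genes), and both stood below it for 5 (41.2%). For 1 host the nuclei libraries lay on either side (32.7%). The median log2 difference of the 9 was −1.04, against −0.04 over all tested genes. That median is the value of Snhg4 and is the same with the hosts at 0 in nuclei set to their bound. It was −7.83 with nuclei 2 alone and −3.77 with no filter on low counts, and 1.51 over the 3 hosts left by a minimum mean of 10 CPM.

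**Figure D2:**
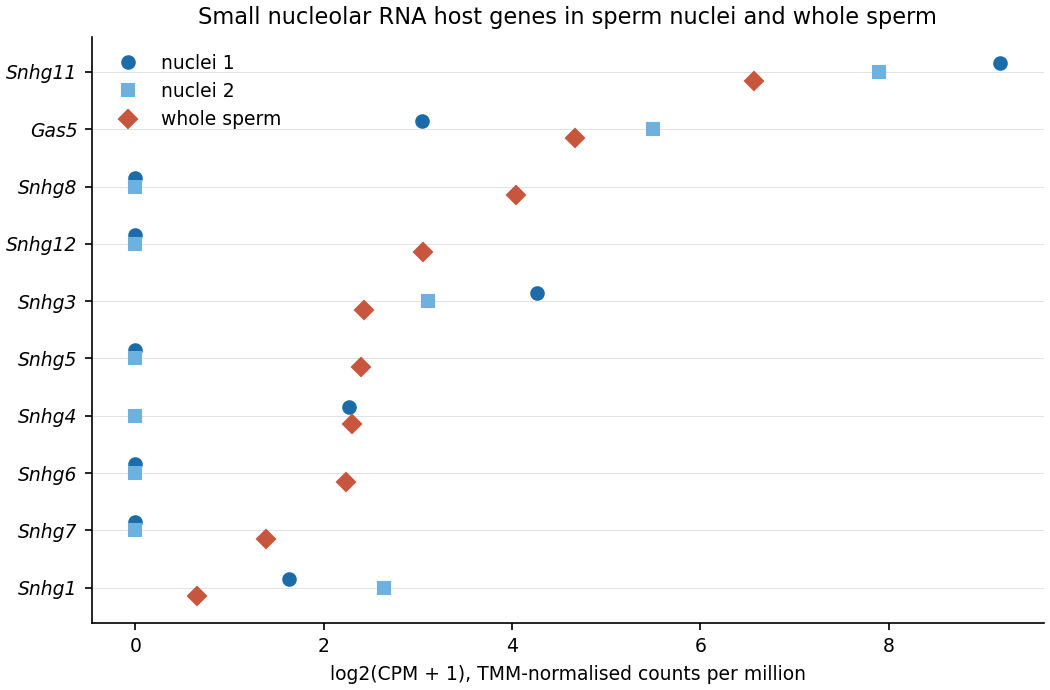
Level of each host gene (rows) on a log2(CPM + 1) axis, each point being 1 library, with circles for nuclei 1, squares for nuclei 2 and diamonds for whole sperm. Snhg8, Snhg12, Snhg5, Snhg6 and Snhg7 are at 0 in both nuclei libraries, and Snhg11 is highest in nuclei 1.

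Snhg11 was the most abundant host in CPM in all 3 libraries. It had 3048 and 1590 counts in the nuclei libraries, against 811 in whole sperm, which is 582 and 238 CPM in nuclei, against 93.7 CPM in whole sperm. Both nuclei libraries were above whole sperm, and nuclei 1 was well above nuclei 2. The nuclei mean was 410 ± 243 CPM (SD, n = 2). The log2 difference was 2.13 ± 0.81 (SE), 4.38-fold higher, with an edgeR adjusted p of 0.471. This SE and those below were derived from the test statistic and rest on spread pooled over genes, not on that of the gene alone. DESeq2 gave a log2 difference of 2.18 with an adjusted p of 0.0188. Each nuclei library set alone against whole sperm gave log2 differences of 2.71 for nuclei 1 and 1.35 for nuclei 2. Scaling by the spike-ins gave 0.70, beside a median of −1.48 over all tested genes under that scaling. Of all counts in the 10 hosts, Snhg11 took 94.9% in nuclei 1 (95% exact Clopper-Pearson interval 94.0 to 95.6%), 80.7% in nuclei 2 (78.9 to 82.4%) and 58.8% in whole sperm (56.2 to 61.4%). These intervals cover counting error only. Without Snhg11 the hosts summed to 31.5 and 57.1 CPM in nuclei, against 65.6 CPM in whole sperm, so both nuclei sums were then below whole sperm.

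Among the hosts of box C/D snoRNAs, Gas5, a gene named for its rise in growth-arrested cells, had 38 and 295 counts in nuclei, against 211 in whole sperm. That is 7.25 and 44.2 CPM in nuclei, against 24.4 CPM in whole sperm, with the nuclei libraries on either side. The log2 difference of Gas5 was 0.08 ± 1.47 (SE; edgeR adjusted p = 1.00), and its sign turned to −1.37 under spike-in scaling and −1.67 with nuclei 1 alone. The deposited RPKM values also divide by transcript length, which alone does not change the order of libraries for a gene. By RPKM, Gas5 had 0.65 and 4.25 in nuclei and 4.57 in whole sperm, so both nuclei libraries were lower there. Why the order of libraries differs between CPM and RPKM was not tested. Zbtb37 overlaps Gas5 on the opposite strand and had 98 and 79 counts in nuclei, against 1 in whole sperm. Whether the authors counted by strand is not given in the sources used here. Reads of Gas5 and Zbtb37 therefore cannot be told apart where they overlap. That overlap ends at chr1:161034849, before the first exon of the matched Gas5 transcript, which starts 565 bases from the gene start.

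Snhg1, which carries a run of box C/D snoRNAs in its introns, had 11 and 35 counts in nuclei, against 5 in whole sperm. Its levels were 2.1 and 5.25 CPM in nuclei, against 0.577 CPM in whole sperm, both nuclei libraries being above whole sperm at low counts. The log2 difference of Snhg1 was 2.63 ± 6.25 (SE; edgeR adjusted p = 0.993). Snhg5 was at 0 in both nuclei libraries and had 37 counts, 4.27 CPM, in whole sperm. Snhg6, host of Snord87, was at 0 in both nuclei libraries and had 32 counts, 3.7 CPM, in whole sperm. Mcmdc2, which overlaps Snhg6 on the opposite strand, did not share that pattern: it had 61 and 98 counts in nuclei, against 11 in whole sperm.

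Of the hosts of box H/ACA snoRNAs, Snhg3 had 96 and 51 counts in nuclei, against 38 in whole sperm. Its levels were 18.3 and 7.65 CPM in nuclei, against 4.39 CPM in whole sperm, with both nuclei libraries above whole sperm. The log2 difference of Snhg3 was 1.56 ± 3.05 (SE; edgeR adjusted p = 0.986). Rcc1 overlaps Snhg3 on the same strand and had 765 and 1094 counts in nuclei, against 413 in whole sperm. How reads shared by the overlapping genes were assigned is not given in the sources used here. Snhg4, host of Snora74a, had 20 and 0 counts in nuclei, against 34 in whole sperm. Nuclei 1 (3.82 CPM) was close to whole sperm (3.93 CPM), and nuclei 2 held no count, so nuclei 2 decides its log2 difference of −1.04 ± 5.31 (SE; edgeR adjusted p = 1.00). With nuclei 1 alone that difference was 0.04. The protein-coding gene Gm28285 covers the whole span of Snhg4 on the same strand and had no count row under that name. Reads of Snhg4 and Gm28285 therefore cannot be told apart by position in the gene span alone.

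Snhg8, whose exon holds Snora24, showed the widest gap of the hosts without a nuclear count. Neither Snora24 nor the snoRNA genes in the long exon of the matched Gas5 transcript had a count row matched to them by name. Unless they have a row under another symbol, any reads from them cannot be told apart from those of these hosts. Snhg8 was at 0 in both nuclei libraries and had 134 counts, 15.5 CPM, in whole sperm. At the whole-sperm level, 103 counts would be expected in nuclei 2. Taking 3 counts per library as the most that a count of 0 allows (0.572 CPM in nuclei 1 and 0.45 CPM in nuclei 2), Snhg8 was at least 30.3-fold lower in nuclei, against the mean of these 2 floors. Its edgeR p was 0.0734 before adjustment and 0.909 after it. Snhg12, which hosts both classes of snoRNA, was at 0 in both nuclei libraries against 63 counts, 7.28 CPM, in whole sperm, at least 14.2-fold lower. On the same floor Snhg5 was at least 8.36-fold lower and Snhg6 at least 7.23-fold lower. The edgeR adjusted p was 0.909 for each of these 3 as well. Snhg7, host of Snora43 and Snora17, was at 0 in nuclei against 14 counts, 1.62 CPM, in whole sperm, at least 3.16-fold lower, and was too low to be tested. PCR copies were not marked, so these floors cover counting error in nuclei only. The whole-sperm count, from 1 library, was taken as exact, and the spread between preparations was not included. Each fold given as at least is therefore no limit on the true difference.

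A count of 0 in both nuclei libraries was found for 5 of the 7 hosts with 10 to 200 counts in whole sperm, and for 10.6% of all genes in that range. With no upper limit, which adds Gas5 and Snhg11, it was found for 5 of 9 hosts with at least 10 counts, and for 7.18% of all such genes. The same 5 hosts were listed at 0 in nuclei in the RPKM table, which comes from the same libraries and is no separate evidence. The authors' adjusted whole-sperm value, the whole-sperm count less the nuclei mean and never under 0, therefore kept these 5 in full, at 134 for Snhg8, 63 for Snhg12, 37 for Snhg5, 32 for Snhg6 and 14 for Snhg7. It was 45 for Gas5 and 24 for Snhg4. It was 0 for Snhg1, Snhg3 and Snhg11, which is 3 of 10 hosts against 32.5% of genes with a whole-sperm count.

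Per length, the order of the hosts in whole sperm by RPKM was Snhg8 (11.0), Snhg11 (7.71), Snhg12 (6.23), Snhg3 (5.74), Snhg6 (5.36), Gas5 (4.57), Snhg5 (1.79), Snhg4 (1.53), Snhg1 (0.985) and Snhg7 (0.726). Snhg8 stood at percentile 83.8 and Snhg7 at percentile 30.0 of the 16231 genes with a value there, and with 1 library no spread can be given between neighbours. In nuclei, Snhg11 averaged 21.4 ± 9.2 RPKM and Snhg3 averaged 14.9 ± 6.86 RPKM (SD, n = 2). Their ranges overlapped, but Snhg11 was above Snhg3 within each nuclei library. Snhg1 (1.32 and 2.75 RPKM) and Gas5 (0.65 and 4.25 RPKM) overlapped as well, and both were below Snhg3 in each nuclei library.

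Of the snoRNA genes inside the hosts, 10 had a row under their GENCODE name in the count tables, and 4 of these had a count. The other 6 were at 0 in all libraries (Snord87, Snora43, Snora17, Snora16a, Snord99 and Snord47). Rows were matched by that name alone, and the genes with microRNA names were left out. The remaining snoRNA genes may therefore have a row under another symbol. The sequences of those in Snhg1 and Snhg12 are shown, so that each can be read beside the counts of its host. Snord22 is at chr19:8725866-8725991 (plus), Snora44 at chr4:132309941-132310069 (plus) and Snora61 at chr4:132310240-132310369 (plus), from GENCODE vM21. Capitals mark the last CTGA (D box) in Snord22, an ANANNA match in the middle part (H box) in Snora44 and Snora61, and an ACA within the last 8 bases of Snora61, on the strand of the RNA. TGATGA (C box) was not found in Snord22, and the last ACA of Snora44 is at position 93 of its 129 bases and is not marked. Of 1507 annotated snoRNA transcripts of any length, 79.5% hold CTGA, 91.5% hold ANANNA and 46.8% hold ACA in the last 8 bases.
Snord22: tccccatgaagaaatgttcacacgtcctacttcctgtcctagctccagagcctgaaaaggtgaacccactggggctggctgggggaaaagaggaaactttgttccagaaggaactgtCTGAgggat
Snora44: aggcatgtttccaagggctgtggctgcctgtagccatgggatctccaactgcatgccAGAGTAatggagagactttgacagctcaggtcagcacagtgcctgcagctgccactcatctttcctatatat
Snora61: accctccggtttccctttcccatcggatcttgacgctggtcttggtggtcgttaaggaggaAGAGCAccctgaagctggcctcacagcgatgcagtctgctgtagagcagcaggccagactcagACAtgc
Snord22 had 3 and 18 counts in nuclei, against 77 in whole sperm, both nuclei libraries being below whole sperm in CPM, whereas both were above it for its host Snhg1. The log2 difference of Snord22 was −2.43 ± 4.69 (SE; edgeR adjusted p = 0.986), and the difference between snoRNA and host was not tested. Snora44 had 24 and 20 counts in nuclei, against 25 in whole sperm, while its host Snhg12 had none in nuclei. Snora61, in the same host, had 0 and 24 counts in nuclei, against 0 in whole sperm. Snora74a had 15 and 10 counts in nuclei, against 0 in whole sperm, where its RPKM was 0.118. None of these snoRNAs was called by edgeR (adjusted p = 0.909 for Snora61 and for Snora74a).

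**Figure D3:**
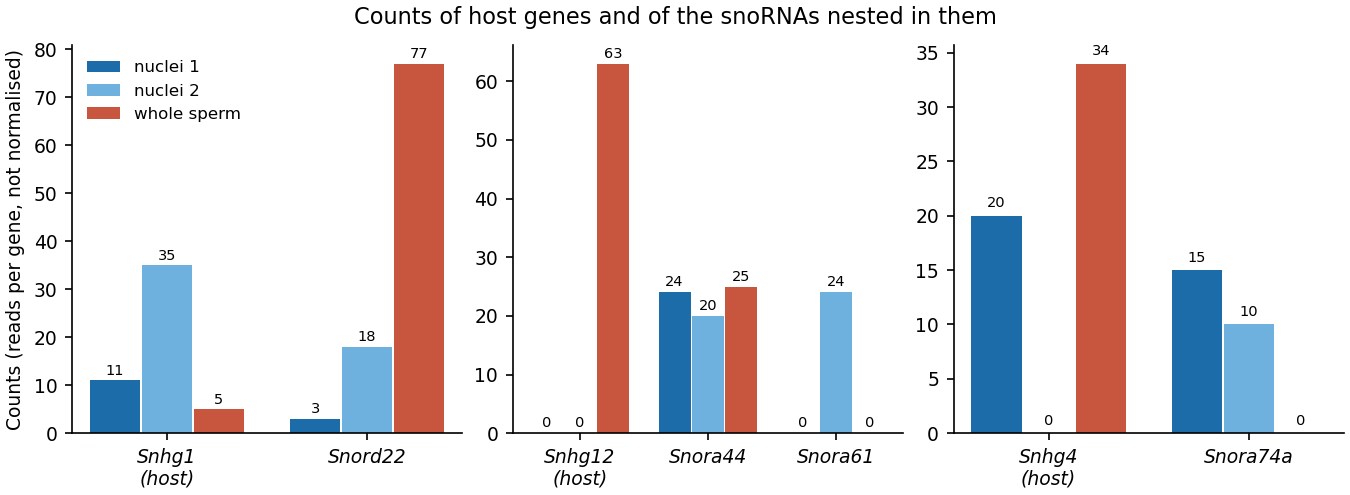
Counts of each host and of the snoRNA inside it by library, nuclei left of whole sperm. Snora44 was counted in every library, while Snhg12 was counted only in whole sperm.

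Other genes of the pathway were taken from lists by function, and edgeR called none of their members in either direction. Over all 14397 tested genes, 7089 were above 0 in log2 difference and 7308 below. DESeq2 called Casc3 higher and Hspa8 lower, and gave most genes of these lists no adjusted p. Of other noncoding hosts, 8 were tested, with 4 above and 4 below 0 in log2 difference and a median of −0.05. Snhg16 had 31.3 and 44.2 CPM in nuclei, against 17.4 CPM in whole sperm, while Dancr (log2 difference −0.71) and Snhg9 (−0.47) were nearer to 0. Of the snoRNP core proteins, which bind the snoRNA in the finished particle, 5 of 8 were above 0 and the median was 0.20. Nop56, a core protein of box C/D particles, had 23.9 and 39.7 CPM in nuclei against 0.462 CPM for whole sperm (edgeR adjusted p = 0.471). That whole-sperm value of Nop56 is 4 counts in 1 library. The core proteins Nhp2l1 and Nop10 had log2 differences of 0.08 and −0.11. Of the assembly factors, 7 of 10 were below 0 and the median was −1.69. Nufip1, which helps assemble box C/D particles, had 0.763 and 0.899 CPM in nuclei against 18.4 CPM for whole sperm (edgeR adjusted p = 0.909). Shq1, the most abundant assembly factor, had 55.5 and 111 CPM in nuclei, against 74.3 CPM in whole sperm, and Nolc1 had a log2 difference of −1.46. Of nonsense-mediated decay factors, 8 of 14 were above 0 and the median was 0.44. Smg1, the kinase of that pathway, had 1484.3 and 3439.2 CPM in nuclei, against 1074.4 CPM in whole sperm. Casc3, a component of the exon junction complex, had 127 and 128 CPM in nuclei, against 27.9 CPM in whole sperm (edgeR adjusted p = 0.605, DESeq2 adjusted p = 0.0488). Of protein-coding snoRNA hosts, 18 of 28 were below 0 and the median was −0.74. Hspa8, a chaperone gene with intronic snoRNAs, had 222 and 148 CPM in nuclei against 618 CPM for whole sperm (edgeR adjusted p = 0.543, DESeq2 adjusted p = 0.039). Eef2 and Tpt1 had log2 differences of 0.40 and −1.39.

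**Figure D4:**
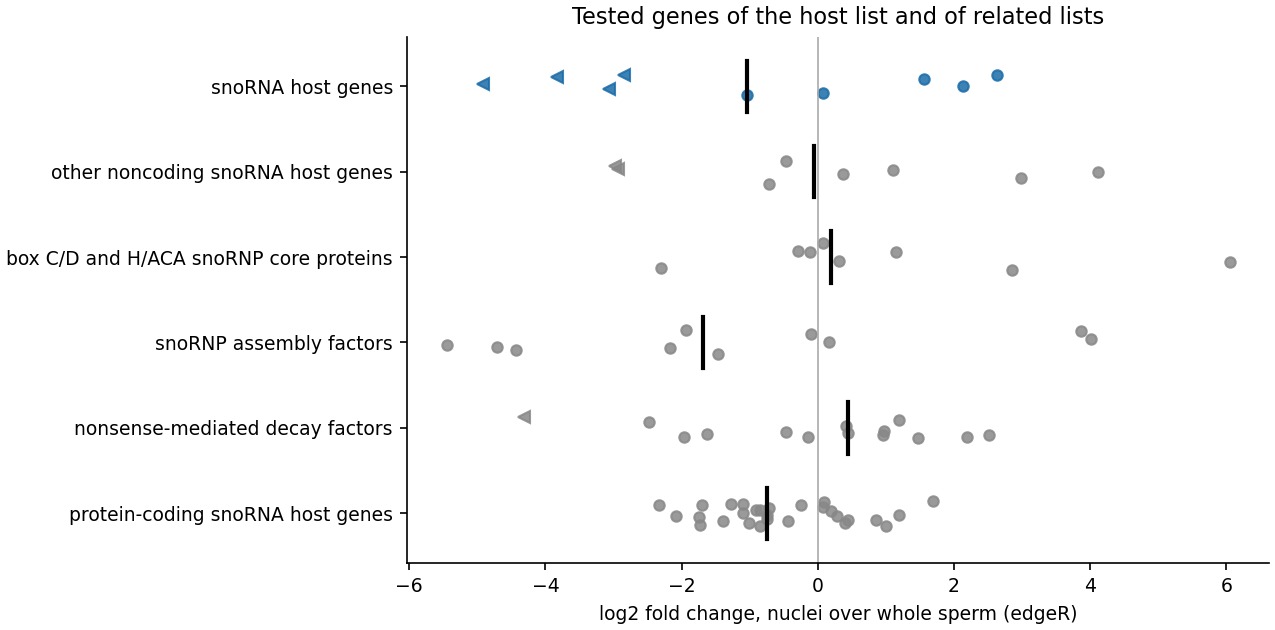
Log2 difference, nuclei over whole sperm, of each tested gene by list, with the list median as a black bar and triangles for genes at 0 in both nuclei libraries, drawn at their bound. Every list has genes on both sides of 0.

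Markers of other cells were summed in each library. Epididymal epithelium markers summed to 1889.8 and 1922.9 CPM in nuclei, against 11257.5 CPM in whole sperm. Crisp1 alone gave 488 and 525 CPM of these in nuclei and 6452.5 CPM in whole sperm, so the sum rests largely on it. Of these markers, 8 of 9 tested were below 0 and Crisp1 was called lower by edgeR. In all libraries, 5 of 16 were at 0 (Lcn5, Lcn8, Rnase10, Ly6g5b and Defb29). General epithelial markers summed to 116 and 154 CPM in nuclei, against 606 CPM in whole sperm, with 8 of 9 below 0 and Cldn8 called lower by edgeR. Leukocyte markers summed to 19.3 and 17.1 CPM in nuclei, against 46.3 CPM in whole sperm, with 7 of 8 tested below 0 and none called by edgeR. Smooth muscle and stroma markers summed to 168 and 94.9 CPM in nuclei, against 150 CPM in whole sperm, with 5 of 9 tested below 0, none called by edgeR and Des at 0 in all libraries, so the nuclei libraries lay on either side of whole sperm. Sperm and spermatid markers summed to 5816.7 and 5517.1 CPM in nuclei, against 3138.2 CPM in whole sperm, with 11 of 14 above 0. The part of these markers in the values of the host genes was not tested, and fewer cells of a type and less RNA per cell cannot be told apart in bulk RNA.

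**Figure D5:**
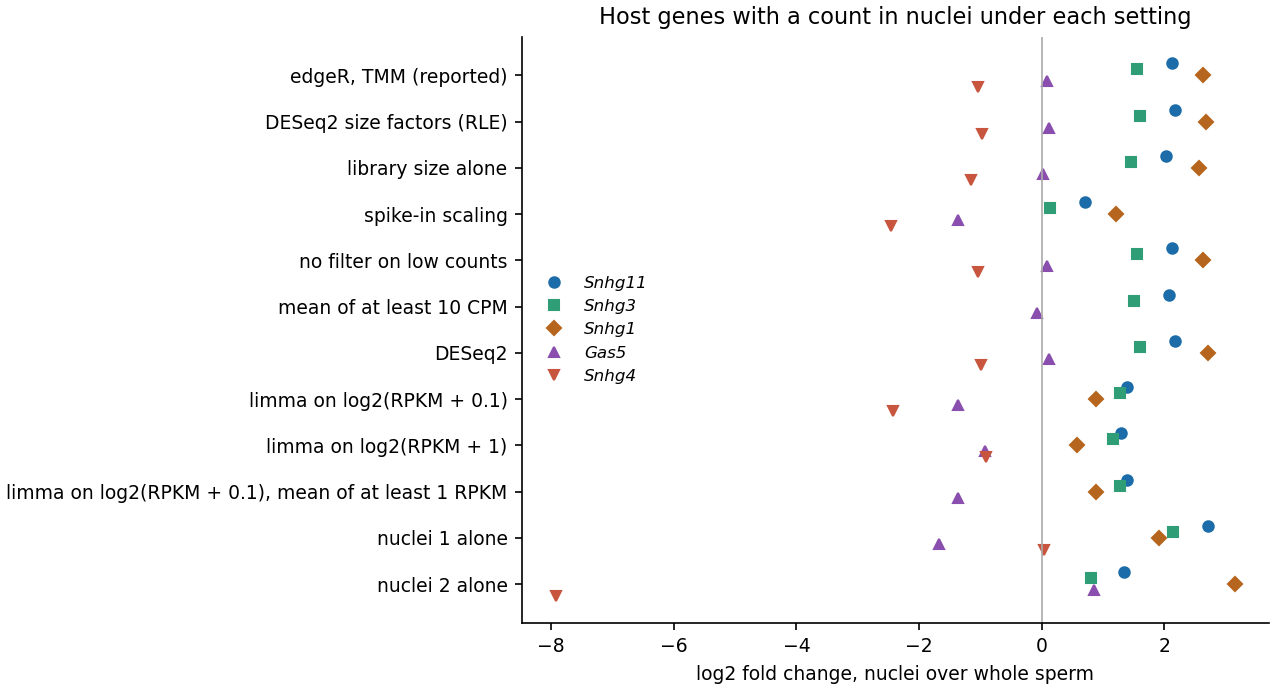
Log2 difference, nuclei over whole sperm, of the 5 hosts with a count in nuclei (points) under each processing setting (rows). Snhg11, Snhg3 and Snhg1 lie above 0 in every setting that gave them a value, and Gas5 and Snhg4 lie on both sides of 0.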

How the data were processed

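RNA-seq libraries of 2 nuclei preparations and 1 whole-sperm preparation were used. The labels name 6 samples, 2 runs of each preparation, which were treated as combined. The authors deposited whole-number counts per gene or assembled region, RPKM per transcript, an adjusted whole-sperm column handled here as a score, and region coordinates. The submitters' processing notes name build mm10, TopHat2 2.0.12 (an aligner), HTSeq (a read counter), DESeq2, Cufflinks 2.1.1, bedtools, CASAVA 1.8.2 and SAMtools 0.1.19, with no role or order. In all 25610 rows the adjusted score equalled the whole-sperm count less the nuclei mean, never under 0, within 0.5. Host genes, lists and tests were chosen with earlier results of these data known.

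Counts were tested with edgeR 4.0.16 (R 4.3.3; TMM, filterByExpr, quasi-likelihood, Benjamini-Hochberg, threshold 0.05). The filter left 16720 of the 25610 rows, 14397 of them annotated genes. The fit has 1 residual degree of freedom and assumes that the lone whole-sperm library varies like the nuclei. Its spread was pooled fully over genes, with a common coefficient of variation of 1.3. Each SE is the size of the log2 difference over the square root of its F statistic. The procedure was tested on simulated data with less spread than these libraries. Alternatives were other scaling (23 shared spike-ins among them), other filters, DESeq2 1.42.0, limma 3.58.1 on log2(RPKM + 0.1), and each nuclei library alone. Named genes were every host, every snoRNA inside a host with a row in the count tables, and, of each other list, the 3 tested genes with the highest mean CPM and any with an adjusted p under 0.05, of which 1 is not reported here. Counts at 0 get a floor of 3 counts per library.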

Additional observations from a re-analysis of the deposited data

How the results depend on the processing

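Of 91 values of single tested hosts under the alternatives, 83 kept their direction and did not pass the threshold where an adjusted p was given, 7 turned direction and 1, Snhg11 in DESeq2 (2.18), passed it. Gas5 turned to −1.37 under spike-in scaling, to −0.08 with a minimum mean of 10 CPM, to −1.37, −0.92 and −1.37 in the 3 limma fits on RPKM and to −1.67 with nuclei 1 alone (0.86 with nuclei 2 alone). Snhg4 turned to 0.04 with nuclei 1 alone, and was −7.92 with nuclei 2 alone, where it had no count and the value depends on the prior count. The edgeR adjusted p of Snhg11 ranged between 0.433 and 0.801. The cause of these changes was not tested. The 4 higher and 16 lower calls over all genes became 2 higher under library-size scaling, 1 higher and 527 lower under spike-in scaling, 0 and 0 with a minimum mean of 10 CPM (324 and 264 at an unadjusted edgeR p under 0.05), 198 and 38 in DESeq2, and 0 and 0 in each limma fit (274 and 2245, 276 and 2718, and 69 and 467 at an unadjusted limma p under 0.05). DESeq2 gave no adjusted p for 8 of the hosts. Leaving out a nuclei library put the host median between −7.83 and −1.67, where the lower end depends on the prior count since nuclei 2 held no count for several hosts, and left 1 library a side, so no calls could be counted. The host median was −2.45 under spike-in scaling (−1.48 over all genes), −3.77 with no filter, where it depends on the prior count, and 1.51 for the 3 hosts left with a minimum mean of 10 CPM. Depth limits Snhg1 most, followed by Snhg7, since at the whole-sperm level 3.03 and 8.47 counts of them would be expected in nuclei 1.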

Other observations

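Outside the 10 hosts, 3 other noncoding snoRNA hosts are given, chosen after their values were seen. The edgeR adjusted p was 0.909 for each. Snhg10 held 0 counts in both nuclei libraries and 34 in whole sperm. Rian, an imprinted noncoding gene that carries box C/D snoRNAs, held 0 in both nuclei libraries and 35 in whole sperm. A count of 0 in both nuclei libraries was found for 10.6% of all genes with 10 to 200 whole-sperm counts. Snhg15 ran the other way, with 14.5 and 14.2 CPM in nuclei, against 0.808 CPM in whole sperm, which is 7 counts.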
